A study of Mus musculus with 30 samples.

Results

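The transcripts described here are those of 8 nuclear receptors that set how hepatocytes handle foreign chemicals, lipids, hormones and energy: Nr1i2 (PXR), Nr1i3 (CAR), Ppara, Rxra, Nr1h3 (LXRalpha), Esr1, Thrb and Esrra. They were chosen by gene symbol and not by a rule on a measured value, but with earlier results of these data known. They are 8 of the 48440 genes in the count table. All 8 passed the filter on low counts. Under the PBS pump, the Nr1i3 count was lower in every cisplatin library than in any control library. The effect differed under the ACBP pump, where cisplatin libraries lay on both sides of the control libraries and Nr1i3 did not pass. Reads of Nr1i3 cannot be told apart here from those of Tomm40l, an overlapping gene. Esrra was also lower after cisplatin under the PBS pump, by a smaller amount. Of the 6 groups, however, the PBS pump alone had the highest Esrra mean. The lowest was that of CRS with the ACBP pump, a group without cisplatin. Rxra was higher after cisplatin under the PBS pump. That call was lost in 5 of the fits without 1 PBS or CDDP library and in 5 of 7 other alternative fits. No receptor passed the test after CRS or after the ACBP pump alone.

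Nuclear receptors are transcription factors that many small fat-soluble molecules switch on or off. PXR and CAR sense drugs and bile acids and drive cytochrome P450 and conjugation genes. PPARalpha senses fatty acids and drives their oxidation and ketogenesis, and LXRalpha senses oxysterols and drives cholesterol export and fatty acid synthesis. PXR, CAR, PPARalpha, LXRalpha and the thyroid hormone receptor bind DNA as pairs with RXR, on repeats of a short hexamer whose spacing favours some pairs over others. Estrogen receptor alpha binds as a pair with itself. ERRalpha, the Esrra product, has no established natural hormone and acts with the coactivator PGC-1alpha on mitochondrial genes.

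Liver mRNA came from wild-type female C57BL/6 J mice, 8 weeks old when an osmotic pump with phosphate-buffered saline (PBS) or 2.5 mg/mL ACBP was implanted. ACBP is acyl-CoA-binding protein, the product of Dbi. In some mice anorexia was then induced, with CRS starting 48 hours after the pump or CDDP (cisplatin, which crosslinks DNA) 72 hours after it. The letters CRS are all the labels give, and they are read here as restraint stress. The 6 groups of 5 libraries were PBS pump alone, PBS pump with CDDP, PBS pump with CRS, ACBP pump alone (ACBP), ACBP pump with CDDP (CDDP+ACBP) and ACBP pump with CRS (CRS+ACBP). No group was given less food alone, so effects of either model and of eating less cannot be told apart. The labels do not say that each library came from its own mouse, so p-values measure the spread between libraries, which may be technical. The tissue is whole liver, in which fewer cells of a type and less RNA per cell cannot be told apart.

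Counts on genes summed to between 13957380 and 18479134 per library. Summed hepatocyte markers lay between 53502 CPM and 167720 CPM over the 30 libraries (CPM, the counts scaled to a common library size by TMM). Skeletal muscle markers summed to between 3.18 and 9269 CPM, and 13 libraries in all 6 groups held over 10 times the median of muscle or brain markers. Cdkn1a, the p53-induced cell cycle inhibitor, lay between 154 and 456 CPM in CDDP, between 5.12 and 63.2 in CDDP+ACBP and at 12.1 or less in the libraries without CDDP. Of 12 markers each, 7 of Kupffer cells, 7 of sinusoidal endothelium, 5 of stellate cells, 10 of B and T cells and 6 of pericentral hepatocytes were lower in CDDP than in PBS, where 18.3% of all genes were lower. Higher were 1 Kupffer, 1 endothelial and 3 of 5 cholangiocyte markers, and of 9 hepatocyte markers 4 were higher and 2 lower. Of 12 periportal hepatocyte markers 3 were higher and 1 lower. Their median log2 fold change was -0.32, near that of the pericentral markers (-0.37). Of all genes 23.1% were higher. Summed red blood cell markers lay between 6.97 and 9.33 CPM in CDDP, against 257 to 471 in PBS and 167 to 1222 in CDDP+ACBP. Summed Kupffer cell markers lay between 412 and 508 CPM in PBS, 260 and 369 in CDDP, and 234 and 367 in CDDP+ACBP. The part of Cdkn1a and of these markers in the receptor results was not tested.

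Nr1i3 (ENSMUSG00000005677) lies on the plus strand at chr1:171213970-171220701 of mm10. CAR, its product, induces Cyp2b genes and other drug-clearing enzymes. Its row needs a caution before any value. Tomm40l, a gene for a mitochondrial import channel protein on the opposite strand, covers 3304 bases, or 74.9%, of the Nr1i3 exons. The 30 libraries together held 471057 counts for Nr1i3 and 462441 for Tomm40l, although the labels call the libraries strand-specific. The ratio of Tomm40l to Nr1i3 counts lay between 0.931 and 1.03 in all 30 libraries. Reads of the pair therefore cannot be told apart here, and each Nr1i3 value below is the value of the overlapping pair. The other 7 receptors shared no more than 2.07% of their exon bases with another gene.

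**Figure D1:**
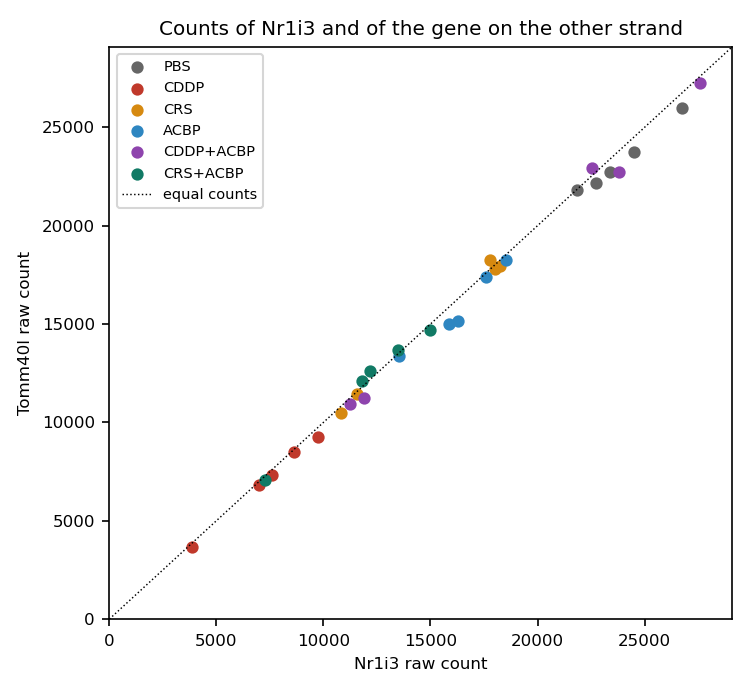
Raw read counts per library of Nr1i3 (x axis) and of Tomm40l on the other strand (y axis), 1 point a library, coloured by group, with a dotted line of equal counts. All 30 points lie on or beside the line of equal counts, and the CDDP libraries lie in its lowest part, with 1 CRS+ACBP library among them.

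The Nr1i3 promoter is shown because this gene changed most among the receptors, followed by those of Rxra and Esrra, the other 2 that passed the test. RefSeq windows of 300 bases around each start on GRCm38.p6 were searched on both strands for 4 motifs. These were the half-site AGGTCA, DR1 (the hexamer AGGNCA repeated in the same direction with 1 base of any kind between the copies), DR4 (the same repeat with 4 bases between) and the ERR element TCAAGGTCA. The half-site can lie inside each of the other 3. Capitals mark matches on either strand. The Nr1i3 window, chr1:171213720-171214019 on the plus strand, held none of them. The second of 2 Rxra windows, chr2:27709042-27709341 on the plus strand, held 2 half-sites. The Esrra window, chr19:6921759-6922058 on the minus strand, held 1 DR4.
Nr1i3: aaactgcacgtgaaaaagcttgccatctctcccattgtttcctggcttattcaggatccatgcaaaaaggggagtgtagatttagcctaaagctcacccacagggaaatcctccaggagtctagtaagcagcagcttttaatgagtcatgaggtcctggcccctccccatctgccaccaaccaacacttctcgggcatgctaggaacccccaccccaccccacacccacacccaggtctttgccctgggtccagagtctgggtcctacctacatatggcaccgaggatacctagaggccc
Rxra: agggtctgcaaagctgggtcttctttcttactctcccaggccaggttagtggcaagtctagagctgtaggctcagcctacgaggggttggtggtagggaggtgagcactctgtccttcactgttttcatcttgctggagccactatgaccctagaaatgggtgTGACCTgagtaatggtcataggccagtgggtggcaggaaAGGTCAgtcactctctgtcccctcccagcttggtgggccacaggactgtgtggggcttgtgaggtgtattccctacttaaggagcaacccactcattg
Esrra: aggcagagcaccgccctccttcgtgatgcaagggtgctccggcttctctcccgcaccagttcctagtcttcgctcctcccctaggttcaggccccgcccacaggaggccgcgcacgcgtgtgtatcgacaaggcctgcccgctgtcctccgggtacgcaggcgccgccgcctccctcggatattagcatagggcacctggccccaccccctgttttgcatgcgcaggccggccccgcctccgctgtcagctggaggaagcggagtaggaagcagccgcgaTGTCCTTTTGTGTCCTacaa
All 8 receptors had at least 1 window, 12 in all. The half-site was found in 2 of the 12 windows, 1 of Rxra and 1 of Thrb, beside 16.3% of the 32851 windows of all genes. DR4 was found in 1 of the 12 and in 0.253% of all windows. Neither DR1 (0.381% of all windows) nor the ERR element (0.423%) was found in any of the 12. These matches are descriptions of letters, and no binding was measured.

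Among the xenobiotic sensors, Nr1i3 was the receptor with the largest change after CDDP. The 5 PBS libraries held 1307, 1361, 1644, 1509.9 and 1420.4 CPM of Nr1i3, and the 5 CDDP libraries 489.5, 544, 418, 194 and 564 CPM. Every CDDP library lay below every PBS library, a pattern that 11.4% of all tested genes shared. Nr1i3 fell by 1.71 ± 0.27 (SE) on the log2 scale, 3.28-fold, with an edgeR quasi-likelihood adjusted p of 1.63e-05 and a 95% interval from -2.27 to -1.16. The Tomm40l row gave a log2 fold change of -1.73.

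Nr1i2 (ENSMUSG00000022809, chr16:38248323-38294824, minus strand) encodes PXR, the sensor of steroids, bile acids and many drugs. It spread widely within groups. PBS libraries lay between 115 and 257 CPM, and CDDP libraries between 88.2 and 180.2 CPM. The groups overlapped, and the log2 fold change was -0.24 (95% interval -0.71 to 0.23, adjusted p = 0.409). The interval of Nr1i2 excludes a fall as large as that estimated for Nr1i3.

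Of the lipid sensors, Ppara (ENSMUSG00000022383, chr15:85734983-85802819, plus strand) encodes the fatty acid receptor that switches on oxidation in fasting. The PBS libraries held 24.4, 36.4, 36.5, 39.0 and 33.0 CPM of Ppara, and the CDDP libraries 21.4, 54.7, 16.1, 14.4 and 23.4 CPM. Of the 5 CDDP libraries 4 lay below every PBS library, and CDDP replicate 2 lay above them all. With all libraries the log2 fold change of Ppara was -0.38 (95% interval -1.01 to 0.25, adjusted p = 0.326). Without CDDP replicate 2 it was -0.85 with an edgeR adjusted p of 0.0167. With all libraries, limma voom with quality weights called Ppara lower (-0.86, adjusted p = 0.0106). Whether Ppara passed thus depended on 1 library and on the method.

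Nr1h3 (ENSMUSG00000002108, chr2:91184061-91202834, minus strand) encodes LXRalpha, the oxysterol receptor. It lay between 98.8 and 115 CPM in PBS and between 84.2 and 131 CPM in CDDP. The groups overlapped, and the log2 fold change was 0.03 (95% interval -0.25 to 0.30, adjusted p = 0.895).

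Rxra (ENSMUSG00000015846, chr2:27676440-27762957, plus strand) encodes the shared partner of PXR, CAR, PPARalpha, LXRalpha and the thyroid receptor. The PBS libraries held 269, 276, 327, 266 and 290.4 CPM of Rxra, and the CDDP libraries 349.9, 415, 297, 285 and 639 CPM. CDDP replicate 5 stood highest, while CDDP replicates 3 and 4 lay inside the PBS range. Rxra rose by 0.48 ± 0.18 (SE) on the log2 scale, 1.39-fold, with an edgeR adjusted p of 0.0304. Without CDDP replicate 5, in which muscle markers summed to 861 CPM, the log2 fold change was 0.24 (adjusted p = 0.205). PBS replicate 2 held 9269 CPM of muscle markers and 276 CPM of Rxra. Without the 13 libraries rich in muscle or brain markers, Rxra had a log2 fold change of 0.24 (edgeR adjusted p = 0.344). Without the 7 libraries richest in them it was 0.46 (adjusted p = 0.0930). The 13 include CDDP replicate 5, and the part of muscle RNA itself in the Rxra values was not tested. The Rxra call was also lost without PBS replicate 1, 2 or 4 or CDDP replicate 2 (adjusted p 0.0615, 0.0550, 0.0629 and 0.0538). It was lost under 5 of the 7 other alternatives, the fits without marker-rich libraries included.

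Among the receptors of hormones and their relative, Esrra (ENSMUSG00000024955, chr19:6910977-6921813, minus strand) encodes ERRalpha, which acts on genes of mitochondrial respiration. The PBS libraries held 110.4, 106, 104, 97.6 and 121 CPM of Esrra, and the CDDP libraries 67.9, 87.9, 61.6, 57.5 and 104 CPM. Of the 5 CDDP libraries 4 lay below every PBS library, and CDDP replicate 5 lay inside the PBS range. Esrra fell by 0.51 ± 0.16 (SE) on the log2 scale, 1.42-fold, with an edgeR adjusted p of 0.0104.

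Esr1 (ENSMUSG00000019768, chr10:4611593-5005614, plus strand) encodes estrogen receptor alpha, the main estrogen receptor of liver. It lay between 17.9 and 32.8 CPM in PBS and between 19.2 and 34.0 CPM in CDDP, with a log2 fold change of 0.13 (95% interval -0.22 to 0.49, adjusted p = 0.553). Thrb (ENSMUSG00000021779, chr14:17660261-18038090, plus strand) encodes the main thyroid hormone receptor of hepatocytes. It lay between 13.4 and 16.9 CPM in PBS and between 15.9 and 19.5 CPM in CDDP, with a log2 fold change of 0.14 (95% interval -0.15 to 0.42, adjusted p = 0.453). The groups overlapped for both genes.

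Over the 8 receptors, 1 passed the test as higher and 2 as lower in CDDP than in PBS. Of all 16304 tested genes 41.4% passed, 23.1% as higher and 18.3% as lower, so the share of receptors that passed was near the background. The median log2 fold change of the 8 was -0.11, beside 0.02 for all genes.

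**Figure D2:**
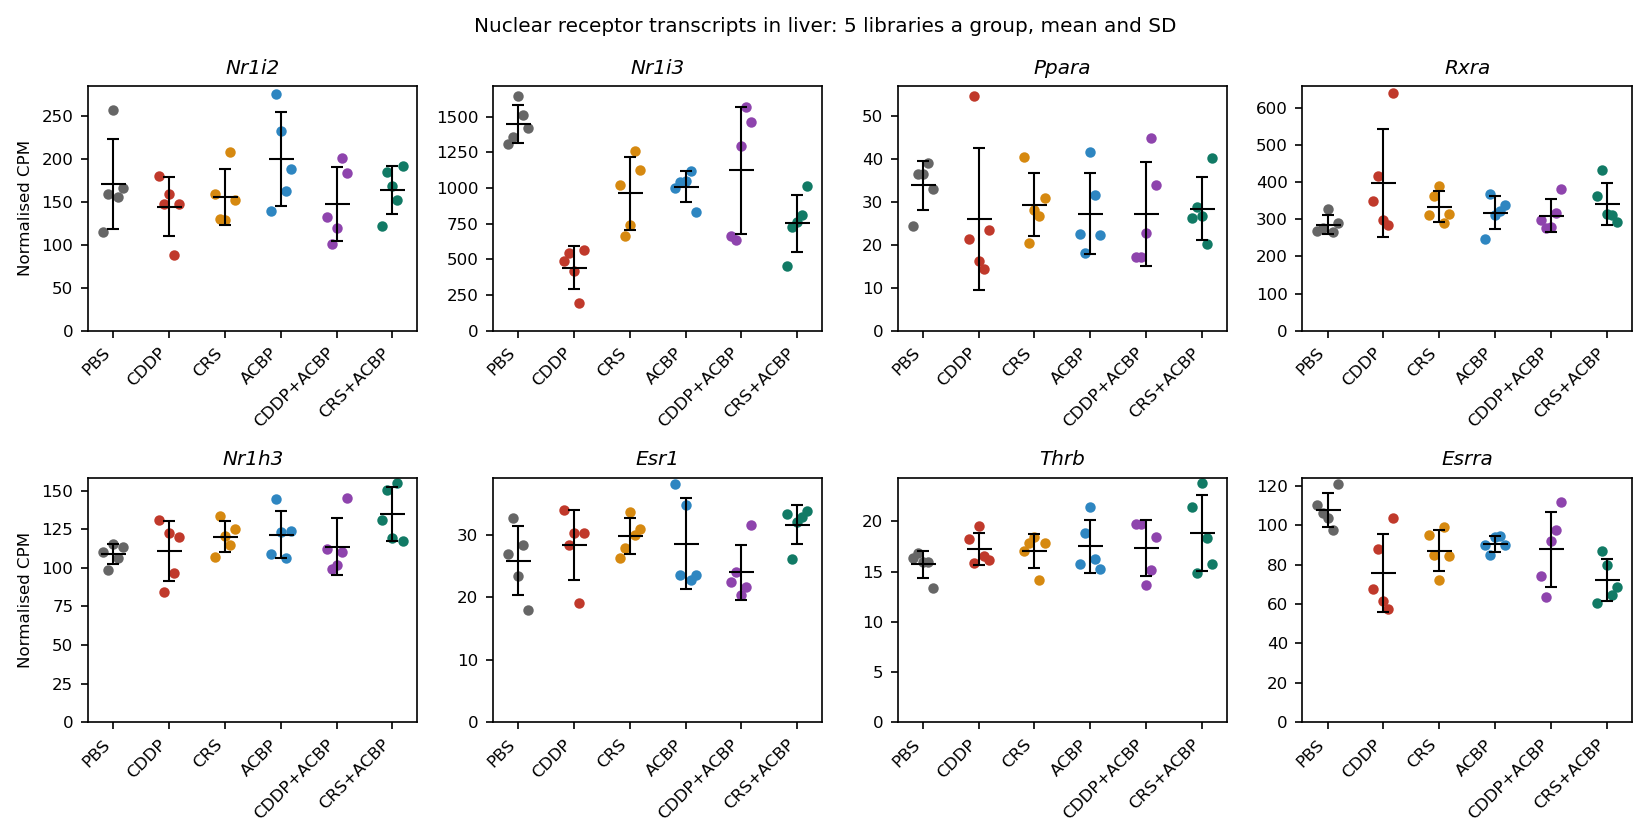
Normalised CPM of each of the 8 receptor transcripts (y axis from 0) in the 6 groups (x axis), 1 point a library, with the group mean and SD in black. Nr1i3 lies between 194 and 564 CPM in CDDP and between 1307 and 1644 CPM in PBS, while Esr1 and Thrb overlap between all groups.

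The ACBP pump was then compared with the PBS pump in mice given CDDP. Nr1i3 was higher under the ACBP pump. The CDDP+ACBP libraries held 667, 633, 1294.5, 1571 and 1461 CPM of Nr1i3, each above the highest CDDP library, at 564 CPM. In the same 5 libraries, in the same order, Cdkn1a was at 63.2, 37.0, 52.8, 5.12 and 16.4 CPM, and the part of its lower level in the Nr1i3 result was not tested. CDDP+ACBP replicates 1 and 2 were near the CDDP range of Nr1i3, and replicates 3 to 5 near or inside the PBS range. Nr1i3 rose by 1.35 ± 0.27 (SE) on the log2 scale from CDDP to CDDP+ACBP, 2.55-fold, with an edgeR adjusted p of 0.000349. Ranges that do not overlap, with CDDP+ACBP higher, were found in 6.02% of all tested genes.

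No other receptor passed the test in this comparison. Of all genes 33.8% did, 14.9% as higher under the ACBP pump. Rxra lay between 277 and 382 CPM in CDDP+ACBP, with a log2 fold change of -0.36 against CDDP (adjusted p = 0.115). Without CDDP replicate 4 that of Rxra was -0.46 with an adjusted p of 0.0499. Esrra lay between 63.6 and 112 CPM in CDDP+ACBP, with a log2 fold change of 0.21 (adjusted p = 0.303). The 5 other receptors had log2 fold changes from -0.24 (Esr1) to 0.06 (Ppara).

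Whether the effect of CDDP differed between the pumps was tested as an interaction in the same fit. For Nr1i3 the log2 fold change after CDDP was 1.87 ± 0.37 (SE) higher under the ACBP pump than under the PBS pump (95% interval 1.10 to 2.64, edgeR adjusted p = 0.00119). It was the 1 of 8 receptors that passed, beside 19.7% of all genes, and 8.38% of all genes passed with a positive interaction. Esrra had an interaction of 0.46 (adjusted p = 0.135) and Rxra one of -0.51 (adjusted p = 0.143). Without CDDP replicate 5 the interaction of Esrra was 0.60, with an adjusted p of 0.0390.

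Under the ACBP pump itself, CDDP+ACBP against ACBP, Nr1i3 had a log2 fold change of 0.16 (95% interval -0.38 to 0.69, adjusted p = 0.9997). CDDP+ACBP replicates 1 and 2 (667 and 633 CPM) lay below every ACBP library (832 to 1120 CPM). Replicates 3 to 5 (1294.5, 1571 and 1461 CPM) lay above every ACBP library. The small mean change therefore stands for libraries on both sides of the ACBP range. None of the 8 receptors passed in that comparison, and 0 of them had an unadjusted p under 0.05. Of all genes 0.129% passed. The comparison of CDDP with PBS, that of CDDP+ACBP with CDDP and the interaction share the 5 CDDP libraries, so a high or low value in those libraries enters all of them.

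**Figure D3:**
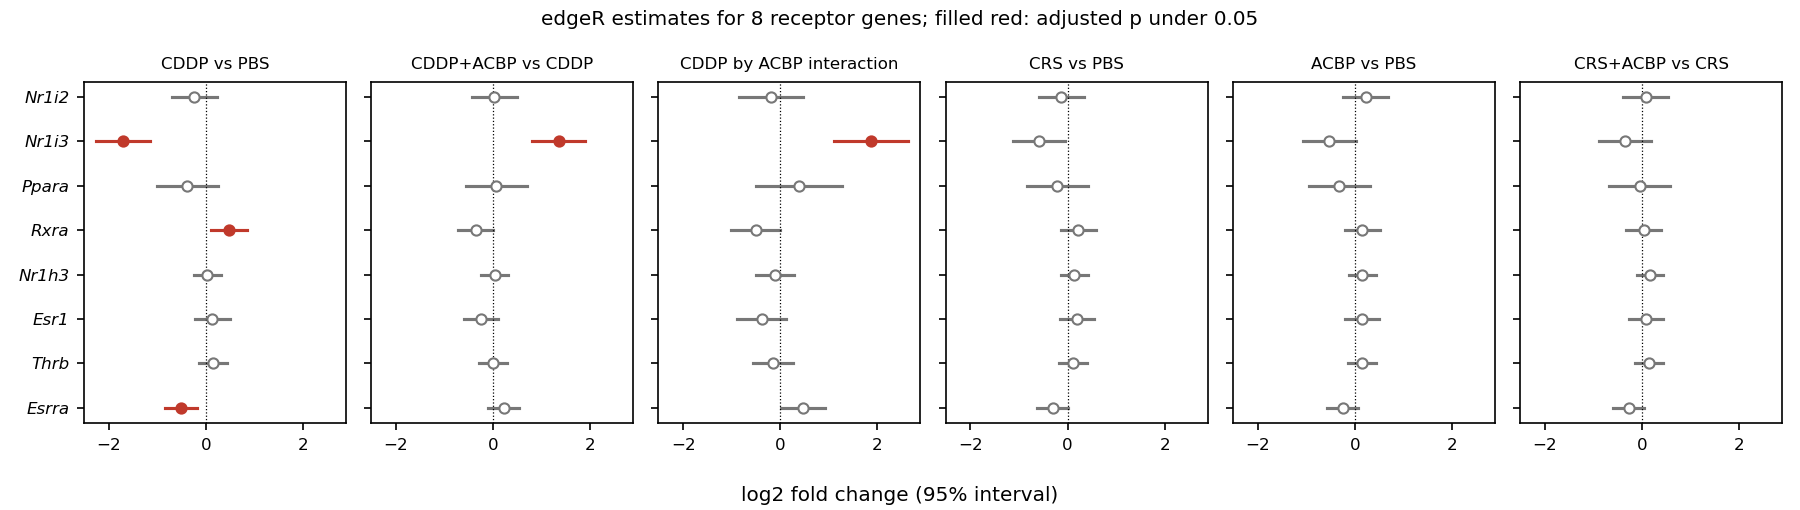
Log2 fold change from edgeR (x axis) of the 8 receptors (y axis) in 6 comparisons, with 95% intervals; filled red points have an adjusted p under 0.05. Nr1i3 is filled in the first 3 panels, at -1.71, 1.35 and 1.87, and no point is filled in the comparisons of CRS or of the ACBP pump alone.

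After CRS no receptor passed the test, and 0.141% of all genes did. The CRS libraries held 1020.8, 664, 740.1, 1262 and 1129.7 CPM of Nr1i3. All 5 lay below the lowest PBS library, at 1307 CPM, as did 2.05% of genes. The log2 fold change of Nr1i3 was -0.59 ± 0.26 (SE), with an edgeR p of 0.0319 that did not hold after adjustment (adjusted p = 0.524). Esrra lay between 72.1 and 99.3 CPM in CRS, with a log2 fold change of -0.31 (adjusted p = 0.566). The 6 other receptors had log2 fold changes from -0.21 (Ppara) to 0.22 (Rxra).

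With the ACBP pump alone, against the PBS pump, 0 of 8 receptors and 0% of all genes passed edgeR's test, while 714 genes and 0 receptors had an unadjusted p under 0.05. DESeq2 called 9 genes and voom 2. The ACBP libraries held 1000.7, 1042.9, 1051, 1119.8 and 832 CPM of Nr1i3. All 5 lay below the lowest PBS library, a pattern in 1.02% of genes, with a log2 fold change of -0.52 (95% interval -1.06 to 0.02, adjusted p = 0.999). Esrra lay between 84.7 and 94.4 CPM in ACBP and likewise below every PBS library, with a log2 fold change of -0.25 (adjusted p = 0.999). The comparisons of CDDP, of CRS and of ACBP with PBS share the PBS libraries, as does the interaction of CDDP with the ACBP pump. The lower values in CDDP, CRS and ACBP are therefore not separate observations. A high or low value in the PBS libraries enters all of these results.

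The last comparisons were those within CRS. CRS+ACBP libraries held 453, 725, 762, 808 and 1014.6 CPM of Nr1i3, which overlapped the CRS libraries. Against CRS the log2 fold change of Nr1i3 was -0.36 (adjusted p = 1), and 0 of 8 receptors and 0% of all genes passed edgeR's test, with 468 genes at an unadjusted p under 0.05. Against ACBP, 0 of 8 receptors and 0% of genes passed again, with 1194 genes at an unadjusted p under 0.05. Esrra had a log2 fold change of -0.33 (edgeR adjusted p = 0.670). In the interaction of CRS with the ACBP pump 0 of 8 and 0% passed, with 388 genes at an unadjusted p under 0.05. The Nr1i3 interaction with CRS was 0.17 (95% interval -0.59 to 0.93). DESeq2 called 1, 20 and 4 genes in these 3 comparisons, and voom 3, 19 and 1.

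Across the 6 groups, mean Nr1i3 levels stood in the order PBS (1448 ± 133 CPM, SD, n = 5), CDDP+ACBP (1125 ± 445), ACBP (1009 ± 108), CRS (963 ± 255), CRS+ACBP (752 ± 202) and CDDP (442 ± 150). Each neighbouring pair in this order had overlapping libraries. For Esrra the order was PBS (108 ± 8.74), ACBP (90.6 ± 3.97), CDDP+ACBP (87.8 ± 19.1), CRS (87.1 ± 10.5), CDDP (75.8 ± 19.6) and CRS+ACBP (72.1 ± 10.8), with neighbours overlapping except PBS and ACBP. Group means of Rxra ran from 286 ± 25.1 CPM in PBS to 397 ± 145 in CDDP. The other means spanned 144 to 199.8 CPM for Nr1i2, 25.998 to 33.9 for Ppara, 109 to 135 for Nr1h3, 24.03 to 31.7 for Esr1 and 15.7 to 18.8 for Thrb. Nr1h3 was highest in CRS+ACBP, at 135 ± 17.4 CPM against 109 ± 6.65 in PBS, a pair of groups that was not tested.

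Levels of different genes can be compared only per length. In PBS, Nr1i3 stood highest at 328 CPM per kilobase of exon (range 296 to 372), with the caution that 74.9% of that length is shared with Tomm40l. Nr1i2 followed at 66.8 (45.1 to 100.7), Rxra at 52.3 (48.7 to 59.9) and Nr1h3 at 43.3 (39.3 to 45.9). Then came Esrra at 24.6 (22.2 to 27.6), Ppara at 8.83 (6.36 to 10.2), Thrb at 2.12 (1.81 to 2.28) and Esr1 at 1.90 (1.31 to 2.40). Libraries overlapped between Nr1i2 and Rxra, between Nr1i2 and Nr1h3, and between Thrb and Esr1. The order of the 8 means was the same in the other groups, except that Rxra stood above Nr1i2 in CDDP and in CRS.

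**Figure D4:**
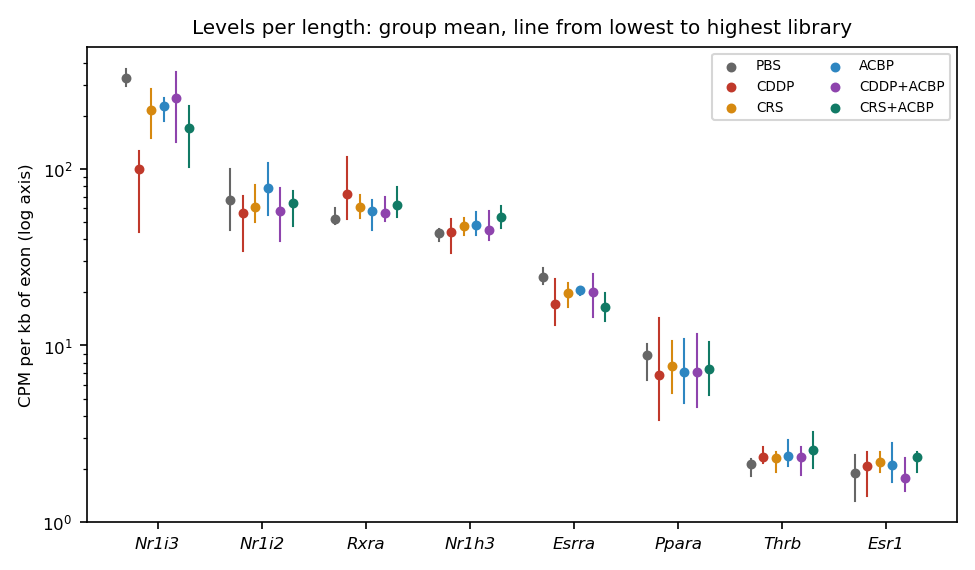
CPM per kilobase of exon (y axis, log scale) of the 8 receptors (x axis, ordered by the PBS mean) in the 6 groups; points are group means and lines run from the lowest to the highest library. Nr1i3 stands highest in each group, from 100.1 in CDDP to 328 in PBS, and the means of Thrb and Esr1 lie between 1.76 and 2.54.

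Of 31 other nuclear receptors tested, 13 were lower and 5 higher after CDDP (median log2 fold change -0.61, all genes 0.02). All genes tested were higher in 23.1% and lower in 18.3%, the shares against which this and the counts of the other lists after CDDP are to be read. The count of 5 fell to 3 without PBS replicate 2, to 2 without CDDP replicate 5 and to 1 without the 13 libraries rich in muscle or brain markers. Nr1h5, which encodes a receptor related to FXR, fell by 3.16 ± 0.37 (SE) on the log2 scale, from 13.5 ± 2.63 to 1.49 ± 1.32 CPM (edgeR adjusted p = 5.59e-07). Nr2f2 (COUP-TFII, an orphan receptor) fell by 1.27, and Rara, a retinoic acid receptor, by 1.13. Hnf4a, the hepatocyte master regulator, rose by 0.72, from 463 ± 55.3 to 761 ± 169 CPM (adjusted p = 0.00126), a call lost without the 13 libraries rich in muscle or brain markers. Nr0b2, the corepressor SHP, had a log2 fold change of -0.07.

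Close relatives of the 8 were named after their values were seen. Rxrg, a sister of Rxra, fell by 1.39, from 9.12 ± 1.56 to 3.44 ± 1.89 CPM (edgeR adjusted p = 0.000465). Rxrb, the other sister, rose by 0.59, from 57.5 ± 7.95 to 86.8 ± 55.7 CPM, but not without CDDP replicate 5 (0.12, adjusted p = 0.517). Thra, the sister of Thrb, fell by 1.22, from 137 ± 25.8 to 58.8 ± 38.2 CPM (adjusted p = 0.00232), and shares 5.70% of its exons with Nr1d1 on the other strand. Nr1h4 (FXR, the bile acid receptor) fell by 1.12, from 199 ± 35.7 to 91.9 ± 28.9 CPM. Pparg rose by 1.01, from 5.66 ± 0.817 to 11.4 ± 7.08 CPM, but not without CDDP replicate 5 (0.70, adjusted p = 0.0536) or under voom (0.13, adjusted p = 0.713). Nr1h2 (LXRbeta) and Ppard did not pass, at 0.07 and -0.37.

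From CDDP to CDDP+ACBP, 11 of the 31 other receptors were higher and 3 lower (median 0.45), beside 14.9% and 18.8% of all genes. The counts were 7 and 0 in a fit of the 2 groups alone, and the 3 became 1 without CDDP replicate 5. Nr1h5 stood at 12.1 ± 3.34 CPM in CDDP+ACBP and rose by 2.997 ± 0.37 (SE) on the log2 scale (edgeR adjusted p = 2.01e-06). Nr2f2 rose by 1.07, Rara by 0.96, Thra by 1.45 and Rxrg by 1.24, while Hnf4a fell by 0.76. In the interaction 9 were higher, beside 8.38% of all genes, and 1 lower, and leaving out 1 library moved the count of 9 to between 3 and 10, and the 7 other alternatives to between 4 and 10. After CRS, 0 of the 31 passed.

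Coregulators dock on receptors and carry their effect. Of 22 tested, 5 were higher and 3 lower after CDDP (median -0.04), close to or below the shares of all genes (23.1% and 18.3%). Under voom and without the 13 marker-rich libraries 5 were lower. Ppargc1a, whose PGC-1alpha product works with ERRalpha and PPARalpha, rose by 1.76, from 13.5 ± 4.36 to 45.9 ± 26.2 CPM (edgeR adjusted p = 0.000210). Lpin1, a phosphatidate phosphatase that also coactivates PPARalpha, rose by 2.14, from 134 ± 87.7 to 590 ± 211 CPM. Ncoa4, a coactivator that also delivers ferritin for breakdown, rose by 1.50. Hdac3, the deacetylase of the NCoR corepressor complex, fell by 0.86, from 70.6 ± 6.99 to 38.9 ± 3.64 CPM. Levels in CDDP+ACBP were 14.5 ± 5.45 CPM for Ppargc1a, 89.2 ± 28.4 for Lpin1 and 63.4 ± 15.4 for Hdac3, and each of the 3 passed the test against CDDP in the opposite direction.

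Of 31 PXR and CAR targets tested, 8 were higher and 7 lower after CDDP (median 0.37), shares near those of all genes (23.1% and 18.3%). Cyp2b13, a female-predominant P450, fell by 1.76, from 223 ± 29.8 to 65.6 ± 14.2 CPM (edgeR adjusted p = 8.38e-06). Cyp2b10, the standard reporter of CAR in mouse liver, rose by 1.42 from 3.34 ± 1.30 to 8.90 ± 3.90 CPM (adjusted p = 0.0289). That call was lost without PBS replicate 2 or 5, CDDP replicate 3 or 4, or the 7 libraries richest in muscle or brain markers (adjusted p from 0.0529 to 0.0797). Cyp3a11, the standard reporter of PXR, stood at 1266 ± 153 CPM in PBS and 1155 ± 580 in CDDP (log2 fold change -0.13, adjusted p = 0.742). Cyp2c54 fell by 1.53, and Gsta1, a glutathione transferase, rose by 4.81 from 1.15 ± 1.10 CPM. These are members of families with near-identical copies, and reads can align to more than 1 copy, so their single values are uncertain. Reads that did not align uniquely made up 11.3% to 12.3% of all counts in PBS and 6.22% to 7.32% in CDDP. How such reads were counted is not given, and their part in these values was not tested. From CDDP to CDDP+ACBP 7 were higher, Cyp2b13 among them at 1.90, and 3 lower, beside 14.9% and 18.8% of all genes, the 7 being 4 in a fit of the 2 groups alone.

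Of 34 PPARalpha targets, 10 were higher and 7 lower after CDDP (median 0.27), beside 23.1% and 18.3% of all genes, but without CDDP replicate 2, the library with the high Ppara, 4 were higher and 11 lower. The count of 10 was also 5 without PBS replicate 1 and without PBS replicate 5, and over the 7 other alternatives it lay between 1 and 11, and that of 7 between 2 and 12. Fabp1, the fatty acid carrier of hepatocytes, fell by 2.77, from 3922 ± 818 to 576 ± 419 CPM (edgeR adjusted p = 2.09e-06). Acaa1b, a peroxisomal thiolase with a near-identical copy, fell by 2.57. Cyp4a14, a fatty acid hydroxylase, rose by 1.58, from 381 ± 148 to 1138 ± 909 CPM, and voom did not call it (0.83, adjusted p = 0.0712). Cidec, a lipid droplet protein, rose by 3.93 to 76.1 ± 145 CPM, a mean set by 1 library at 336 CPM, and voom did not call it (0.69, adjusted p = 0.327). From CDDP to CDDP+ACBP 6 were higher and 6 lower, beside 14.9% and 18.8% of all genes, or 10 and 2 without CDDP replicate 2, and over the 7 other alternatives 2 to 10 were higher and 1 to 6 lower.

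The Fabp1 promoter is shown as the 1 of 26 PPARalpha targets with a window that held a DR1, the repeat known for PPARalpha with RXR. The window is chr6:71199629-71199928 on the plus strand, and the capitals mark that DR1, in which a half-site lies, and a further half-site.
Fabp1: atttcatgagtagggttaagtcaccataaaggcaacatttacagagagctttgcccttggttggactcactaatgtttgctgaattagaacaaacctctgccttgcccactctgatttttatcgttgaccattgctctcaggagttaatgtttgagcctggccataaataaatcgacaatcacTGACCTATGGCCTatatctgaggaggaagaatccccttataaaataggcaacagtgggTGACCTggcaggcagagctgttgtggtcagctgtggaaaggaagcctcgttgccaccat
In all promoter windows a DR1 was found in 0.381%, and here in 1 of the 30 windows of these 26 genes, a description only.

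Of 18 LXR targets, 1 was higher after CDDP, or 2 without CDDP replicate 2 or 4, and 6 were lower (median -0.33), beside 23.1% and 18.3% of all genes. Srebf1, the driver of fatty acid synthesis, fell by 2.06, from 495 ± 220 to 119 ± 48.8 CPM (edgeR adjusted p = 8.84e-06), and stood at 305 ± 76.6 CPM in CDDP+ACBP. Pltp, which moves phospholipid between lipoproteins, fell by 1.02, with 19.3% of its exons shared with Ctsa. Smpdl3a, a phosphodiesterase, rose by 1.05. Abca1, the cholesterol exporter, had a log2 fold change of 0.66 (adjusted p = 0.125), which was -0.63 (adjusted p = 0.0185) without the 13 libraries rich in muscle or brain markers. It was called higher without CDDP replicate 2 (0.87, adjusted p = 0.0439) and without CDDP replicate 4 (0.87, adjusted p = 0.0430).

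Of 14 thyroid hormone targets 4 were higher and 3 lower after CDDP (median 0.24), beside 23.1% and 18.3% of all genes, the 4 being 2 without PBS replicate 1 or 5 or CDDP replicate 1. Dio1, which activates thyroid hormone in liver, fell by 2.95, from 131 ± 31.5 to 16.9 ± 8.98 CPM (edgeR adjusted p = 1.86e-06), and stood at 98.7 ± 50.2 CPM in CDDP+ACBP. Klf9, a transcription factor, rose by 2.10, and Slc16a10, a transporter of thyroid hormone and aromatic amino acids, by 0.90, the latter not called without the 13 marker-rich libraries (0.58, adjusted p = 0.0599). Thrsp, a lipogenic gene, spread from 21.7 to 1166 CPM within CDDP and did not pass (-0.50, adjusted p = 0.551). Without CDDP replicate 1 Thrsp was called lower (-1.60, adjusted p = 0.0329).

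Of 25 ERR and mitochondrial targets 7 were higher and 2 lower after CDDP (median 0.15), beside 23.1% and 18.3% of all genes, the 2 being 1 without PBS replicate 2 or 3 or CDDP replicate 2. Atp5b, a subunit of ATP synthase, rose by 1.13, from 519 ± 187 to 1139.6 ± 249.6 CPM (edgeR adjusted p = 0.00111). Mdh2, of the citric acid cycle, rose by 1.15, and Vegfa, the endothelial growth factor, fell by 1.20. Idh3a, also of that cycle, had a log2 fold change of 0.02.

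**Figure D5:**
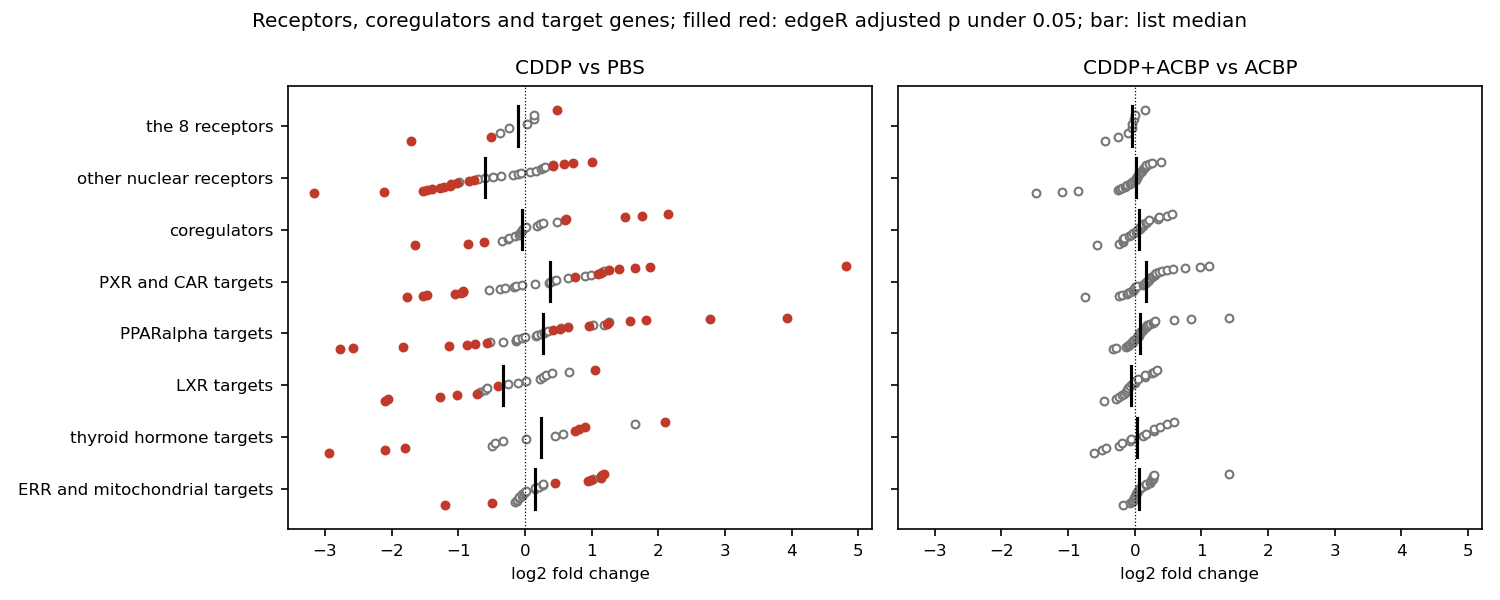
Log2 fold change (x axis) of the 8 receptors, other nuclear receptors, coregulators and target lists (y axis) for CDDP against PBS and for CDDP+ACBP against ACBP, 1 point a gene; filled red points have an edgeR adjusted p under 0.05 and bars mark list medians. Red points lie on both sides of 0 in every list for CDDP against PBS, and none appears in the other panel.

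After CRS, 0 genes of these 7 lists passed the edgeR test, as in CDDP+ACBP against ACBP.

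Likeness to other genes was measured as Pearson's r of log2 CPM over the 30 libraries among 9519 genes whose mean was 5 CPM or more, as a description over libraries that share groups. After Tomm40l (r = 0.999), Nr1i3 was most like Pcsk4 (0.91) and Il15ra (0.89). With group means subtracted, Pcsk4 (0.90) and Lgals4 (0.86) were nearest after Tomm40l. Esrra was most like Fastk (0.83) and Gtf3c2 (0.80), and after subtraction most like Fdxr (0.83). Rxra was most like Tmem203 before and after subtraction (0.86 and 0.89). Thrb was most like Cyp2b10 (0.71), and after subtraction Cyp2b10 (0.74), Hsp90ab1 (0.72) and Hspa8 (0.71) were nearest, the last 2 being heat shock chaperone genes. Ppara after subtraction was most like Cpt1a (0.77), the gate of mitochondrial fatty acid oxidation. The nearest genes after subtraction were Acot4 (0.79) for Nr1i2, Ttc36 (0.86) for Nr1h3 and Sirt5 (0.65) for Esr1.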

How the data were processed

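The 30 liver libraries, 5 in each of 6 groups, came as raw counts of each gene in a single deposited table. Per the submitters' processing notes, the authors aligned reads with HISAT2 2.2.1 to mm10 and made the counts with HTSeq 2.0.3. The deposited counts are not normalised. For the annotation release and the strand setting of counting, nothing is given in the sources used here. Of all counts, those of the summary lines included, a median of 38.0% lay on genes and 43.4% on no feature. A read on overlapping genes may have been counted for each, so these are shares of counts and not of reads. The 5 summary lines were left out of library sizes. Of the 48440 genes 99.2% matched GENCODE vM21, the source of coordinates, exons and strands. Groups came from the treatment labels, which name no batch and no pairing. Any 2 replicates differed by a chi-square of at least 21.1 per degree of freedom, so none was counted as a copy.

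The main test was the quasi-likelihood test of edgeR 4.0.16 (R 4.3.3) with TMM scaling. A single model held all 30 libraries and 6 groups, leaving 24 residual degrees of freedom, and filterByExpr kept 16304 genes. A gene was called at a Benjamini-Hochberg adjusted p under 0.05 over those genes in each of 9 comparisons. "Higher", "lower", "rose", "fell" and "passed" in the text mean such a call, except where ranges of libraries are compared. The script was tested on simulated counts. Alternatives were RLE normalisation, no filter, DESeq2 1.42.0, limma 3.58.1 voom with quality weights, fitting only the groups compared, leaving out each library, and leaving out the 13 libraries rich in muscle or brain markers. Leaving out the 7 richest was added after seeing the data.

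Named were the 8 receptors, a set of reference targets, and of each list the 3 called genes with the smallest p in a comparison; the text gives part of these, and some named genes are not reported here. Rxrb, Rxrg, Thra, Nr1h2, Pparg, Ppard and Nr1h4 were added after their values were seen. The receptors and all 19 gene lists were chosen with earlier results of these data known. Promoter windows are from RefSeq. Tables and figures were made in Python 3.11.15 with matplotlib 3.10.9, scipy 1.17.1, numpy 2.4.6 and pandas 2.3.3.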

Additional observations from a re-analysis of the deposited data

Results flagged for a closer look

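In the 48 groups of 5 libraries (8 receptors in 6 groups), the gap of the highest or lowest library to the next was compared with Dixon's critical value of 0.71, which chance passes in about 1 in 20 groups. The gap passed in 4 groups. Ppara in CDDP stood at 54.7 CPM in replicate 2, with the next library at 23.4 CPM. Nr1h3 in CDDP+ACBP stood at 145 CPM in replicate 5, with the next at 112 CPM. Esr1 in CRS+ACBP stood lowest at 26.2 CPM in replicate 2, with the next at 32.2 CPM. Thrb in PBS stood lowest at 13.4 CPM in replicate 5, with the next at 15.96 CPM.

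The effect of CDDP on Nr1i3 differed between the pumps by 1.87 on the log2 scale, by the interaction test of edgeR (adjusted p = 0.00119). Reads of Nr1i3 and Tomm40l cannot be told apart in this value.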

How the results depend on the processing

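The Nr1i3 calls for CDDP against PBS, for CDDP+ACBP against CDDP and for the interaction, and the Esrra call for CDDP against PBS, held in all 7 alternatives and in each fit without 1 library. Without 1 library, Nr1i3 lay between -1.82 and -1.52 for CDDP against PBS, between 1.16 and 1.50 for CDDP+ACBP against CDDP and between 1.68 and 2.02 for the interaction. Esrra lay between -0.65 and -0.42, with an adjusted p of at most 0.0379. Of the 8 receptors, leaving out 1 library gave 2 to 3 calls for CDDP against PBS, and 1 to 2 for CDDP+ACBP against CDDP and for the interaction, where 1 was reported. It gave 0 to 0 in the other 6 comparisons. Ppara was called under voom (-0.86, adjusted p = 0.0106).

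Of the 253 named gene values, 3 that were called in the reported fit or the alternative turned sign. Abca1 for CDDP against PBS was -0.63 and Rxrb -0.00348 without the 13 libraries rich in muscle or brain markers, and Nr1h2 was -0.40 under voom (adjusted p = 0.0180). The cause was not tested. Calls lost with the sign kept were 20 when only the groups compared were fitted, 17 under voom and 11 without the 13 libraries. They were 9 without the 7 richest, 4 without a filter, 1 under RLE and 0 under DESeq2. The Rxrb call for CDDP against PBS, whose sign turned, was also lost without the 13 libraries. The number of all genes called depended on the method. For CRS against PBS it was 23, but 80 with DESeq2, 930 with voom, 265 with only the groups compared, 43 without the 13 libraries and 9 without the 7. For CDDP+ACBP against CDDP it was 5503, but 3530 with voom and 2217 with only the groups compared. For the interaction with CDDP it was 3216, but 2015 without the 13 libraries and 1722 without the 7. For CDDP+ACBP against ACBP it was 21, but 91 with DESeq2, 70 with voom, 2 with only the groups compared and 0 without the 13 or the 7 libraries. No paired analysis was possible because the labels give no replicate numbers shared between groups. The 95% intervals of Thrb and Esr1 included 0 in every comparison.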

Other observations

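How far the receptors varied between libraries of 1 group differed between genes. In PBS the coefficient of variation was lowest for Nr1h3 (6.10%), Esrra (8.11%), Thrb (8.64%), Rxra (8.79%) and Nr1i3 (9.17%). It was higher for Ppara (16.8%), Esr1 (21.5%) and Nr1i2 (30.6%). In CDDP it was 63.2% for Ppara, 36.5% for Rxra, 33.9% for Nr1i3 and 25.9% for Esrra.

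Among pairs of receptors, Nr1i3 and Esrra had a Pearson's r of 0.77 over the 30 libraries and 0.70 after group means were subtracted. Nr1i2 and Nr1i3 had 0.52 and 0.69, and Nr1i3 and Ppara 0.56 and 0.63. Rxra and Esrra had 0.07, and 0.56 after subtraction. These are descriptions over libraries that share groups, and no test was made.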
